A study of Mus musculus with 11 samples.

Results

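The PPM1 genes encode metal-dependent protein phosphatases, enzymes that take phosphate off serine and threonine residues. In whole cochleae of Atf6-/- mice 1 of them, Ppm1h, stood at 16.5 ± 1.64 FPKM (SD, n = 6) against 8.67 ± 1.16 FPKM (SD, n = 5) in Atf6+/+ mice, whereas Ppm1j, its closest relative in sequence, was lower at an unadjusted p only, and no difference was detected in the other 8 genes. The family was followed as 10 genes, Ppm1a, Ppm1b, Ppm1d, Ppm1e, Ppm1f, Ppm1g, Ppm1h, Ppm1j, Ppm1k and Ppm1l, taken by gene symbol from 18667 genes with values. All 10 averaged 0.1 FPKM or more over the libraries, as did 16169 genes in all, and were tested. FPKM scales the fragments of a gene by transcript length and by the mapped fragments of the library, and is a level per length. The family was chosen by the FPKM of Ppm1h, which differed between the genotypes in these same libraries. The values of Ppm1h are therefore given as a description, without a test, and tests are given for its 9 paralogues.

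The study compared 5 Atf6+/+ cochleae with 6 Atf6-/- cochleae, 1 RNA-Seq library for each, from mice 2 months old on a C57BL/6J background. This strain itself carries a hearing loss allele of Cdh23, shared by both genotypes. ATF6 is a transmembrane protein of the endoplasmic reticulum (ER) that is cut under ER stress and then acts as a transcription factor, and Atf6-/- mice are constitutive knockouts with a premature stop codon and no ATF6 protein in any cell. Controls were littermates of either sex, and neither the sex of each library nor whether any cochleae came from the same animal is given, so that p-values measure only the spread between these libraries. Atf6 itself fell from 9.52 ± 1.11 FPKM to 4.27 ± 0.285 FPKM in Atf6-/- libraries, without overlap (log2 fold change -1.13, adjusted p = 5.17e-05). Read counts were not used, and the methods state only a nominal number of reads for each library, so the count behind each value is unknown.

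Members of the PPM family need manganese or magnesium ions in their active site and, unlike the PP1 and PP2A phosphatases, mostly work as single subunits whose targets are set by their own sequence. Most of them act as brakes on kinase signals. PPM1A and PPM1B switch off stress-activated MAP kinases and TGF-beta signals, PPM1D (WIP1) ends the p53 response, and PPM1E and PPM1F counter PAK and CaM kinases. PPM1H removes the phosphate that the kinase LRRK2, known from Parkinson's disease, puts on Rab GTPases. PPM1L acts in the ER membrane on the ceramide transfer protein CERT, which it helps bind to the ER, and on the ER stress sensor IRE1.

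The 10 genes lie apart in the genome, with Ppm1j and Ppm1l on chromosome 3, Ppm1d and Ppm1e on chromosome 11, Ppm1h on chromosome 10 and the rest on a chromosome each. In the translated GENCODE coding sequences (GRCm38), Ppm1h and Ppm1j encode 513 and 507 residues and shared 290 of 475 aligned residues (61.1%). Ppm1a and Ppm1b shared 76.1% and Ppm1e and Ppm1f 48.1%, while Ppm1h shared 27.0% to 33.8% with each of the other 8 members. The Ppm1h gene spans 267 kb and Ppm1j 4.96 kb. Ppm1j overlaps 1 coding gene on the opposite strand, Fam19a3 (Tafa3 in the files), which stood at 0.760 FPKM in the controls, against 0.635 FPKM in the knockouts. The libraries were stranded, but whether counting used strand is not given in the sources used here. The start regions of Ppm1h and Ppm1j are shown because these close relatives are the members whose levels stood furthest from each other between genotypes. Both sequences come from RefSeq (GRCm38.p6, plus strand), run from 250 bases before to 50 bases after the annotated start, at chr10:122678512-122678811 for Ppm1h and chr3:104780806-104781105 for Ppm1j, and have CG dinucleotides in capitals.
Ppm1h: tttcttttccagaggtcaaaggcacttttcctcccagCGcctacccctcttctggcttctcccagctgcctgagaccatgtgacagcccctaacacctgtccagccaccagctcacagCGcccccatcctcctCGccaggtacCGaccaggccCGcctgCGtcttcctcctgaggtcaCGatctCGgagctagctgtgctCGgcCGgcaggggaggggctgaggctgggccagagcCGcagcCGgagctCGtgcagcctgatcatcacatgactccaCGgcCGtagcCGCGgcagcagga
Ppm1j: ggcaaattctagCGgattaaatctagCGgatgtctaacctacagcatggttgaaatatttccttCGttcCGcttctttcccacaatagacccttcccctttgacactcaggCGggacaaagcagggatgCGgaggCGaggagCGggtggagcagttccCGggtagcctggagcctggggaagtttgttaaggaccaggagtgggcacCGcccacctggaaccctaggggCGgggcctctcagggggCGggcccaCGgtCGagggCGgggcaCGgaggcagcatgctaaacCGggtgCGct
The Ppm1h window had 17 CG dinucleotides and 64.7% GC and the Ppm1j window 18 and 60.7%, beside medians of 7 and 52.7% over all 32851 RefSeq promoter windows. For 9 of 10 members a window was found, Ppm1b with 3, making 11 windows with medians of 18 CG dinucleotides and 64.3% GC. Neither printed window held, on either strand, the ATF4-C/EBP element TGATGNAA, the cAMP response element TGACGTCA, the unfolded protein response element TGACGTGG or the longer ER stress element, present in 3.97%, 1.79%, 0.676% and 0.119% of all windows. Among the 11 windows TGACGTCA occurred in 2, at -85 from the start of Ppm1d and at -136 from that of Ppm1a, and the other motifs in 0. These are matches of letters and describe no binding.

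In the 5 Atf6+/+ libraries Ppm1h stood at 8.98, 8.53, 10.44, 7.98 and 7.40 FPKM. In the 6 Atf6-/- libraries it stood at 15.41, 16.21, 14.99, 15.25, 18.85 and 18.19 FPKM. The lowest Atf6-/- value lay above the highest Atf6+/+ value, so that the genotypes did not overlap, as in 1.25% of all genes tested in either direction. The ratio of the means was 1.90, and the fitted log2 fold change was 0.92 ± 0.092 (SE; 95% interval 0.72 to 1.12, a fold of 1.65 to 2.18). This placed Ppm1h at the 99.8th percentile of log2 fold changes over all 16169 genes, whose median was -0.013. Leaving out any single library gave log2 fold changes of 0.87 to 0.99. As Ppm1h was chosen by these same values, the SE and the interval do not allow for that choice and are no test.

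**Figure D1:**
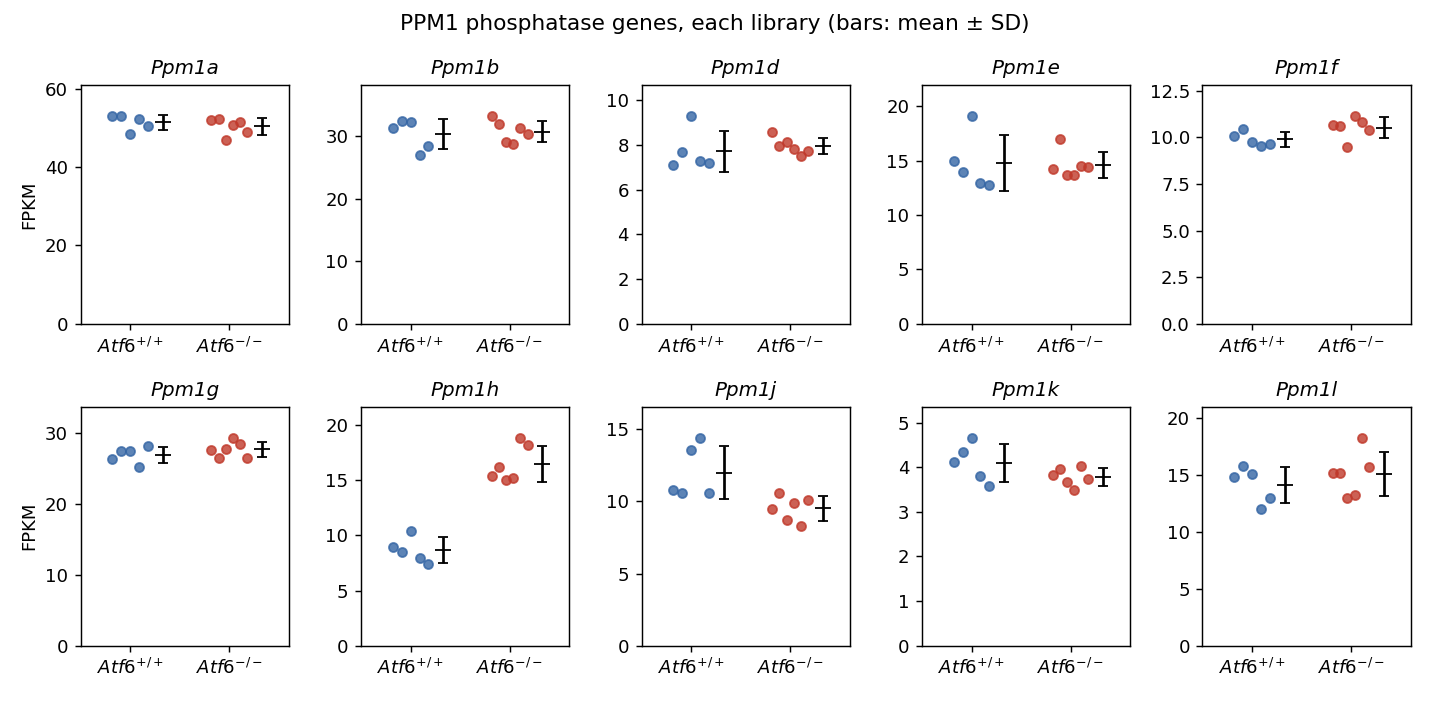
FPKM (vertical axis, from 0) of the 10 PPM1 genes in each of 5 Atf6+/+ (blue) and 6 Atf6-/- (red) libraries, with the mean ± SD of each genotype beside the points. Ppm1h is the only one of the 10 whose genotypes do not overlap, while the Ppm1j values of Atf6-/- libraries lie between 8.29 and 10.58 against 10.56 to 14.40 in Atf6+/+.

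Ppm1j, a close relative of PPM1H whose own substrates are less well known, went the other way. Its Atf6+/+ values were 10.81, 10.61, 13.58, 14.40 and 10.56 FPKM, and its Atf6-/- values were 9.49, 10.58, 8.71, 9.88, 8.29 and 10.11 FPKM. Of the 6 Atf6-/- libraries 5 lay below every Atf6+/+ library, and replicate 2, at 10.58, lay just above the lowest of them. The mean of 11.99 ± 1.85 in Atf6+/+ and 9.51 ± 0.868 in Atf6-/- gave a log2 fold change of -0.32 ± 0.098 (SE; 95% interval -0.54 to -0.11). The exact two-sided permutation test over 11 libraries gave p = 0.00649, with 0.00216 the smallest p it can give, and limma gave an unadjusted p of 0.00627. Over all genes the adjusted p was 0.389, so the difference did not pass the correction.

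The 2 highest Ppm1j values belonged to the Atf6+/+ libraries, replicates 3 and 4, that also had the highest bone marrow scores. The bone marrow score, the mean of the log2 levels of a neutrophil, a B lineage and an erythroid marker list, was 5.94 and 5.27 in these libraries, 3.86 to 4.60 in the other Atf6+/+ libraries and 2.45 to 4.31 in the Atf6-/- libraries. The score weighs every marker on a log scale, and by summed FPKM the erythroid list was highest in Atf6+/+ replicate 5, at 46392, while the neutrophil list was highest in replicate 3 and the B lineage list in replicate 4. Atf6+/+ replicate 4, the highest of all for Ppm1j, was also lowest of the Atf6+/+ libraries in all 6 markers of the stria vascularis, the epithelium that makes endolymph. Its Dct stood at 0.84 FPKM against 56.8 to 76.4 in the other Atf6+/+ libraries, and its Kcne1 at 0.10 FPKM against 14.1 to 21.5, while its Slc12a2, at 23.33 FPKM against 42.4 to 51.5, Esrrb, at 8.34 against 14.9 to 20.4, and Kcnq1, at 2.69 against 7.85 to 11.3, were lower but present. The part of the stria vascularis in the Ppm1j values was not tested. Leaving out replicates 3 and 4 was chosen after seeing the data. It takes away the 2 highest Ppm1j values, so the difference had to shrink. The log2 fold change of Ppm1j was then -0.17 (limma, unadjusted p = 0.0599). The same limit applies to every gene below for which these libraries hold the extreme values. With the score as a covariate the log2 fold change of Ppm1j was -0.12 (limma, unadjusted p = 0.280). For Ppm1h the same values, given as a description, were 0.98 without the 2 libraries and 1.03 with the covariate. Its lowest Atf6-/- value, 14.99 FPKM, came from a library with a score of 3.21, and its highest Atf6+/+ value, 10.44 FPKM, from the library with the highest score of all. In bulk tissue a change in the number of cells of a type and a change of RNA within a cell cannot be told apart.

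**Figure D2:**
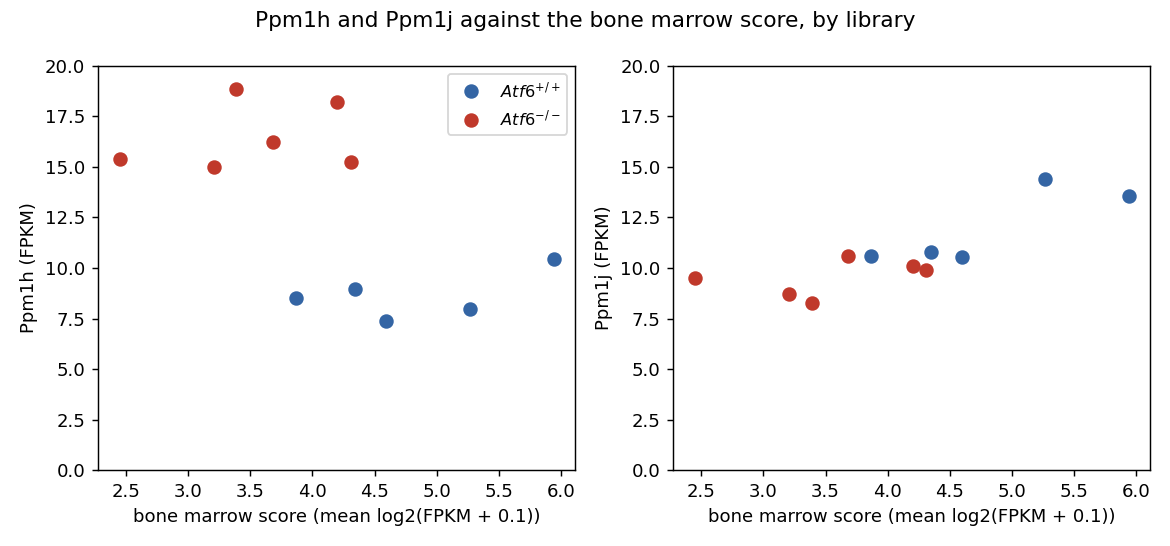
FPKM of Ppm1h (left) and Ppm1j (right), vertical axes from 0, against the bone marrow score of each library (horizontal axis, mean log2(FPKM + 0.1) of neutrophil, B lineage and erythroid marker lists). The 2 Atf6+/+ libraries with scores above 5 hold the highest Ppm1j values, 13.58 and 14.40, and Ppm1h lies at 14.99 or above in every Atf6-/- library and at 10.44 or below in every Atf6+/+ library.

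Marker lists were read to check the cochlear label and the makeup of the libraries. Markers of hair cells, outer hair cells, supporting cells, stria vascularis, neurons and Schwann cells were present over the set, and none of any list was at 0 in every library. Single libraries were uneven in the stria vascularis, whose 6 markers summed to 35.3 to 177 FPKM in Atf6+/+ and 63.5 to 207 FPKM in Atf6-/- libraries, with Bsnd at 0 in Atf6+/+ replicate 4 and at 0.92 to 1.77 FPKM in the other 4. The summed FPKM of 8 neutrophil markers was 273 to 3386 over the Atf6+/+ libraries but 111 to 1294 over the Atf6-/- libraries. For 5 B lineage markers these ranges were 7.93 to 26.5 and 5.42 to 9.90, and for 7 erythroid markers 4826 to 46392 and 2870 to 9374. At the unadjusted rule explained below, 4 of 8, 3 of 5 and 6 of 7 of them were lower in Atf6-/-, beside 5.37% of all genes. No marker of any list passed an adjusted p under 0.05. Of 5 outer hair cell markers, summing to 22.7 to 70.5 in Atf6+/+ and 43.6 to 119 in Atf6-/- libraries, 2 were higher, beside 4.48% of all genes. Higher too were 1 of 5 oligodendrocyte markers (69.4 to 127 and 88.6 to 194), 1 of 6 supporting cell and 1 of 5 Schwann cell markers. Of 6 neuron markers 1 was lower. A count of 1 in so short a list is not read as a difference. No hair cell, stria vascularis, macrophage, bone or skeletal muscle marker met the rule. Atf6-/- replicate 3 stood apart in skeletal muscle, with 5 markers summing to 35.4 FPKM against 2.23 to 5.29 FPKM over the Atf6+/+ libraries, and Acta1 at 9.59 FPKM against 0.09 to 0.30 in the other Atf6-/- libraries. Apart from the values with the bone marrow score above, the part of these cell types in the values of Ppm1h was not tested.

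Set against Ppm1j within each library, a ratio that does not depend on scaling, Ppm1h was at 0.831, 0.804, 0.769, 0.554 and 0.701 times the Ppm1j level in Atf6+/+. In Atf6-/- the ratio was 1.62, 1.53, 1.72, 1.54, 2.27 and 1.80. Ppm1h thus lay below Ppm1j in all 5 Atf6+/+ libraries and above it in all 6 Atf6-/- libraries, with a log2 difference between genotypes of 1.26. Against the other 8 paralogues the log2 difference of the ratio ran from 0.84 (Ppm1l) to 1.04 (Ppm1k). Each of the 9 ratios separated the genotypes without overlap, but all share the Ppm1h values, which did so alone. They are therefore not separate observations. Against the summed level of the 9 paralogues the ratio was 0.0505 ± 0.00492 (SD, n = 5) in the controls, against 0.0968 ± 0.00897 (SD, n = 6) in the knockouts. These ratios contain the Ppm1h values that led to the choice of the family and are given without a test.

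**Figure D3:**
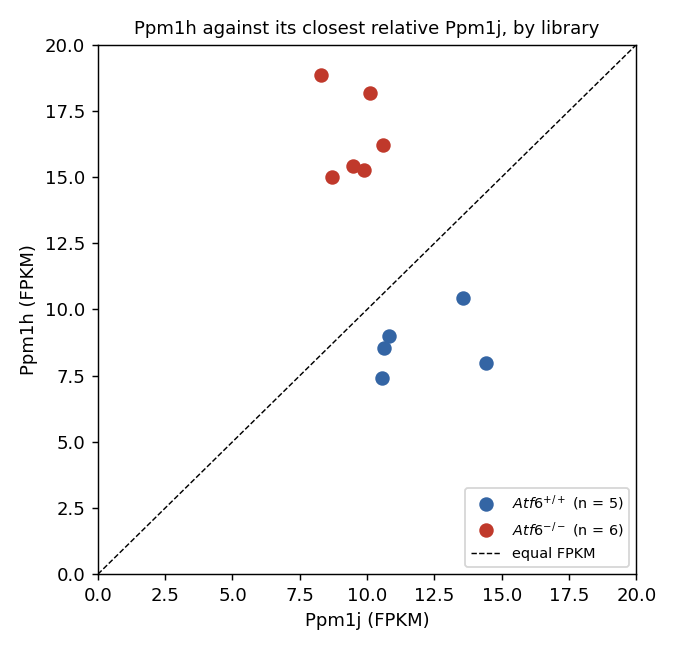
Ppm1h (vertical axis, FPKM) against Ppm1j (horizontal axis, FPKM) in each library, with a dashed line where the levels are equal. All 5 Atf6+/+ libraries (blue) lie below the line and all 6 Atf6-/- libraries (red) above it.

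By level per length, Ppm1a led the family in Atf6+/+ cochleae at 51.4 FPKM, followed by Ppm1b at 30.3 and Ppm1g at 27.0. Below these came Ppm1e at 14.7, Ppm1l at 14.2, Ppm1j at 11.99, Ppm1f at 9.88, Ppm1h at 8.67, Ppm1d at 7.70 and Ppm1k at 4.10 FPKM. The ranges over libraries of Ppm1b and Ppm1g, Ppm1e and Ppm1l, Ppm1l and Ppm1j, Ppm1f and Ppm1h, and Ppm1h and Ppm1d overlapped, whereas Ppm1a, the step from Ppm1g to Ppm1e, that from Ppm1j to Ppm1f and Ppm1k stood clear. Between overlapping neighbours the order could still hold within libraries, as Ppm1b lay above Ppm1g in 5 of 5 and Ppm1h above Ppm1d in 5 of 5, but Ppm1e above Ppm1l in only 3 of 5. In Atf6-/- cochleae the first 3 places were the same, Ppm1h moved from place 8 to place 4 and Ppm1j from place 6 to place 8. There Ppm1h lay above Ppm1l in 6 of 6 libraries although their ranges overlapped, and Ppm1l above Ppm1e in 3 of 6.

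The summed level of the 9 paralogues was 171 ± 6.92 FPKM (SD, n = 5) in the controls, against 170.2 ± 5.98 FPKM (SD, n = 6) in the knockouts. With Ppm1h added the sums were 179.9 ± 7.97 and 187 ± 6.73 FPKM. Ppm1h made up 4.80 ± 0.444% of this family sum in Atf6+/+ and 8.82 ± 0.742% in Atf6-/-, and Ppm1j 6.68% and 5.10%.

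Genes were counted as different by an adjusted p under 0.05 or by the looser unadjusted rule, which asks for an unadjusted limma p no higher than 0.05 and a log2 fold change beyond 0.05 in size. Of the 9 paralogues 0 passed the adjusted p, beside 0.0680% of all genes tested, and 1 met the unadjusted rule (Ppm1j, lower), beside 9.85% of all genes (4.48% higher and 5.37% lower). This share of the paralogues, 1 of 9, was near the background. The log2 fold changes of the 9 ran from -0.32 to 0.092 with a median of 0.022, 5 above and 4 below 0, and 8 of them had an interval that included 0. The bone marrow score as a covariate took the count of 1 to 0. So did leaving out Atf6+/+ replicates 3 and 4, which hold the highest Ppm1j values.

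**Figure D4:**
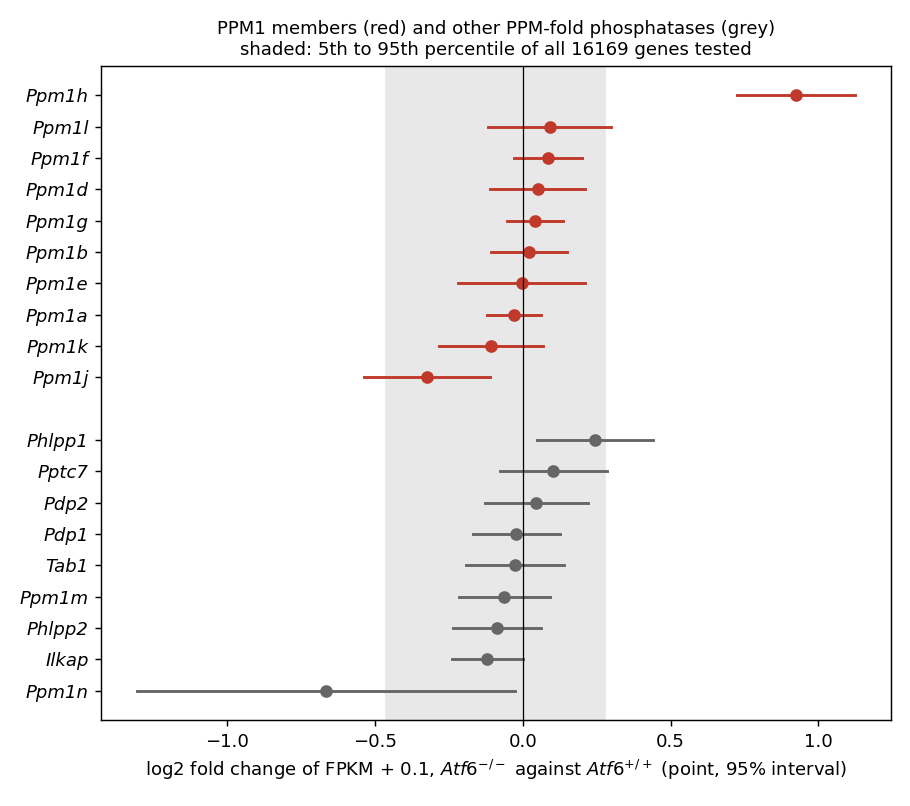
Log2 fold change of FPKM + 0.1 in Atf6-/- against Atf6+/+ (horizontal axis, point and 95% interval) for the 10 PPM1 genes (red) and 9 other genes of the same fold (grey). The 5th to 95th percentile of all 16169 genes, -0.46 to 0.28, is shaded. Ppm1h lies outside the shaded band at 0.92 and the 9 paralogues inside it, Ppm1j lowest at -0.32. The interval of Ppm1h does not allow for its choice by these same values.

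PPM1A, PPM1B and PPM1G form the branch with the highest levels, and none of their genes differed detectably. Ppm1a stood at 52.87, 52.97, 48.44, 52.30 and 50.35 FPKM in Atf6+/+ and at 51.97, 52.35, 46.89, 50.60, 51.46 and 48.83 FPKM in Atf6-/-. The ranges of the genotypes overlapped almost wholly, and the log2 fold change was -0.030 (95% interval -0.12 to 0.062, adjusted p = 0.834, exact permutation p = 0.426). Ppm1b was at 27.04 to 32.38 FPKM in Atf6+/+ and 28.71 to 33.18 FPKM in Atf6-/-, with a log2 fold change of 0.022 (-0.11 to 0.15, adjusted p = 0.918). PPM1G dephosphorylates nuclear proteins, among them factors that hold 7SK RNA and the elongation kinase P-TEFb together. Ppm1g lay between 25.3 and 28.19 FPKM in Atf6+/+ libraries, against 26.49 to 29.37 FPKM in Atf6-/- libraries (log2 fold change 0.040, -0.055 to 0.13, adjusted p = 0.767). The direction of Ppm1a and Ppm1b turned under another scaling or covariate, as given with the processing.

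PPM1E and PPM1F were first known as partners of the PIX exchange factors and as CaM kinase phosphatases. Ppm1e read 15.00, 13.91, 19.08, 12.98 and 12.74 FPKM in Atf6+/+ and 14.18, 16.98, 13.71, 13.67, 14.54 and 14.45 FPKM in Atf6-/-. A single library in each genotype lay above the rest, and the log2 fold change was -0.0030 (95% interval -0.22 to 0.21, adjusted p = 0.996), or 0.093 without Atf6+/+ replicate 3. Ppm1f read 10.07, 10.46, 9.73, 9.52 and 9.63 FPKM in Atf6+/+ and 10.63, 10.58, 9.49, 11.13, 10.80 and 10.37 FPKM in Atf6-/-. Of the Atf6-/- libraries 4 lay above every Atf6+/+ library and 1, replicate 3, below every one. The log2 fold change was 0.086 (-0.029 to 0.20, unadjusted p = 0.129, adjusted p = 0.582, exact permutation p = 0.0693). Without Atf6-/- replicate 3 it was 0.11 with an unadjusted p of 0.0404, which met the unadjusted rule, and an adjusted p of 0.466. This is the library with the skeletal muscle transcripts, whose part in the Ppm1f value was not tested.

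PPM1D is itself induced by p53 and takes phosphate off p53, ATM targets and p38. Ppm1d was at 7.10 to 9.28 FPKM in Atf6+/+ and 7.48 to 8.56 FPKM in Atf6-/- (log2 fold change 0.050, -0.11 to 0.21, adjusted p = 0.840), and Atf6+/+ replicate 3 alone lay above 7.69 FPKM in its group. PPM1K is the mitochondrial phosphatase that activates the branched-chain ketoacid dehydrogenase. Ppm1k, the member with the lowest level, read 4.12, 4.35, 4.66, 3.81 and 3.57 FPKM in Atf6+/+ and 3.83, 3.97, 3.66, 3.49, 4.03 and 3.74 FPKM in Atf6-/-. All but 1 of the Atf6-/- values fell within the Atf6+/+ range, and the log2 fold change was -0.11 (-0.28 to 0.067, adjusted p = 0.649, exact permutation p = 0.154). Ppm1l, the ER member, lay between 12.07 and 15.83 FPKM in Atf6+/+ libraries, against 13.04 to 18.29 FPKM in Atf6-/- libraries (log2 fold change 0.092, -0.12 to 0.30, adjusted p = 0.756).

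The wider PPM fold holds further phosphatases that were not members. PPM1M is, beside PPM1J, the relative nearest to PPM1H, at 48.6% shared residues, and its gene stood at 17.9 ± 1.55 and 17.1 ± 1.46 FPKM (log2 fold change -0.062, -0.22 to 0.093, adjusted p = 0.780). Of 9 such genes of this fold 1, Phlpp1, met the unadjusted rule as higher, beside 4.48% of all genes. It did not meet the rule with the bone marrow score or without Atf6+/+ replicates 3 and 4. Phlpp1, which ends AKT signals, stood at 11.2 ± 1.69 and 13.2 ± 0.638 FPKM (log2 fold change 0.25, unadjusted p = 0.0187, adjusted p = 0.437). Its 2 lowest libraries, at 8.85 and 10.01 FPKM, were Atf6+/+ replicates 3 and 4, and the log2 fold change was 0.088 without them and 0.069 with the bone marrow score. Ppm1n stood at 0.190 and 0.0933 FPKM (log2 fold change -0.67), levels about as low as the pseudocount. It passed the filter on low values only through the Atf6+/+ libraries, so no p is given for it and its call is not read as a result. Ilkap stood at 33.4 and 30.7 FPKM (-0.12) and Pptc7 at 17.3 and 18.5 FPKM (0.10), neither meeting the rule.

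Kinases, substrates and partners that textbook knowledge ties to the members were read in 8 further lists. With the 9 genes of the PPM fold above they came to 81 genes tested, of which 43 were higher and 38 lower. The unadjusted rule was met by 8 as higher, beside 4.48% of all genes, and 0 passed the adjusted p. The fit called 4 as lower, beside 5.37% of all genes. These 4 include Ppm1n, which passed the filter only through the Atf6+/+ libraries and is not read as a result. The median log2 fold change was 0.0063, beside -0.013 for all genes. Without Atf6+/+ replicates 3 and 4 the rule was met by 4 genes in place of 12, Ppm1n being among the 12.

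**Figure D5:**
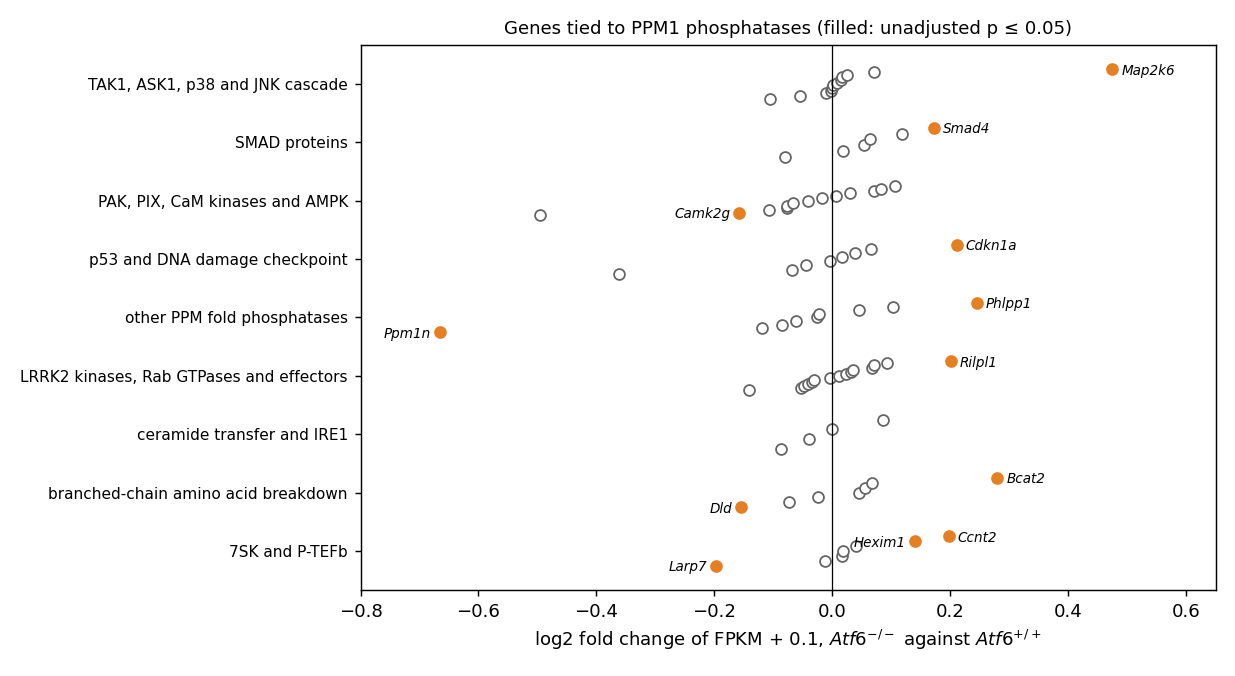
Log2 fold change of FPKM + 0.1 in Atf6-/- against Atf6+/+ (horizontal axis) of the 81 genes tied to PPM1 phosphatases, 1 row for each list; filled points met the unadjusted rule and are named. The 8 filled points to the right and 4 to the left are spread over 8 of the 9 lists, with 0 in ceramide transfer and IRE1. Among the 4, Ppm1n passed the filter on low values only through the Atf6+/+ libraries and is not read as a result.

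The list tied to PPM1H itself held 15 genes of LRRK2 kinases, Rab GTPases and their effectors, with a median of 0.011. Lrrk2 stood at 3.47 and 3.13 FPKM (log2 fold change -0.14, unadjusted p = 0.102). The PPM1H substrates Rab8a, Rab10 and Rab35 stood at 26.4 and 25.6, 41.3 and 43.9, and 51.4 and 51.3 FPKM in Atf6+/+ and Atf6-/-, and none met the rule. Rab3a, a synaptic vesicle GTPase and the most abundant gene of the list, stood at 474 and 463 FPKM, and Mapk8ip3, a motor adaptor that binds phosphorylated Rabs, at 119.0 and 121 FPKM. The 1 gene of this list to meet the rule was Rilpl1, a Rab effector, at 29.5 ± 4.13 and 33.7 ± 2.28 FPKM (log2 fold change 0.20, unadjusted p = 0.0395, adjusted p = 0.491). Its values in Atf6+/+ replicates 3 and 4 were 24.59 and 25.35 FPKM against 31.91 to 33.02 in the other 3, and without these libraries its log2 fold change was 0.050.

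Of 12 genes of the TAK1, ASK1, p38 and JNK cascade, tied to PPM1A and PPM1B, 1 met the rule. Map2k6, which activates p38, read 18.93, 16.85, 10.56, 8.83 and 16.77 FPKM in Atf6+/+ and 19.29, 15.27, 20.12, 19.62, 23.34 and 18.53 FPKM in Atf6-/-. Atf6+/+ replicates 3 and 4 were again the 2 lowest, and the log2 fold change of 0.47 (unadjusted p = 0.0247, adjusted p = 0.462) was 0.13 without them. Mapk10 stood at 50.3 and 48.4, Map2k7 at 44.5 and 45.2 and Tab2 at 36.2 and 38.1 FPKM. Of 6 SMAD genes 1 met the rule, Smad4, the shared partner of receptor-activated SMADs, at 9.97 and 11.2 FPKM (0.17, unadjusted p = 0.0281, adjusted p = 0.471, and 0.081 without the same 2 libraries). Smad9, Smad1 and Smad3 had log2 fold changes of 0.053, 0.063 and 0.12.

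Among 8 genes of the p53 and DNA damage checkpoint, the response tied to PPM1D, Cdkn1a met the rule. Cdkn1a, the cell cycle inhibitor p21, read 76.67, 70.17, 75.50, 72.39 and 86.78 FPKM in Atf6+/+ and 85.93, 83.01, 83.43, 90.34, 95.78 and 90.77 FPKM in Atf6-/-. All Atf6-/- values lay above 4 of the 5 Atf6+/+ values, and the log2 fold change was 0.21 (95% interval 0.082 to 0.34, unadjusted p = 0.00375, adjusted p = 0.362). H2ax stood at 33.996 and 32.3, Trp53 at 32.3 and 31.2 and Mdm2 at 17.8 and 17.7 FPKM, without meeting the rule.

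Of the 7 genes of branched-chain amino acid breakdown, the pathway of PPM1K, 1 met the rule as higher and 1 as lower. Bcat2, the mitochondrial aminotransferase of the first step, read 36.07, 35.19, 31.36, 31.54 and 38.23 FPKM in Atf6+/+ and 41.91, 37.71, 43.13, 40.60, 44.99 and 42.61 FPKM in Atf6-/-. Of the Atf6-/- libraries 5 lay above every Atf6+/+ library, and the log2 fold change was 0.28 (95% interval 0.14 to 0.42, unadjusted p = 0.000689, adjusted p = 0.218). Dld, the E3 subunit that the branched-chain complex shares with pyruvate dehydrogenase, stood at 45.7 ± 2.29 and 41.2 ± 3.40 FPKM (-0.15, unadjusted p = 0.0251, adjusted p = 0.462). The direct PPM1K target Bckdha stood at 49.2 and 48.3 FPKM, Bckdhb at 33.9 and 32.2 FPKM, and Bckdk, the opposing kinase, at 26.7 and 27.5 FPKM. Of the 12 pathway genes that met the rule, Bcat2 and Cdkn1a did so whichever single library was left out. With the bone marrow score as a covariate, and again without Atf6+/+ replicates 3 and 4, Bcat2, Cdkn1a and Dld still met it.

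In the 7SK and P-TEFb list, tied to PPM1G, 2 of 7 genes met the rule as higher and 1 as lower, beside 9.85% of all genes in either direction. Ccnt2, a cyclin of P-TEFb, had a log2 fold change of 0.20 (unadjusted p = 0.0440), Hexim1, its inhibitor, 0.14 (25.5 and 28.1 FPKM, unadjusted p = 0.0489), and Larp7, which binds 7SK RNA, -0.20 (unadjusted p = 0.0477), with adjusted p of 0.503 to 0.505. None of the 3 met the rule without Atf6+/+ replicates 3 and 4 (0.17, 0.097 and -0.19) or with the bone marrow score (0.18, 0.074 and -0.21), and they met it in 5, 3 and 4 of the 11 fits that left out a library. Mepce stood at 28.0 and 28.4 FPKM. Of 13 PAK, PIX, CaM kinase and AMPK genes, tied to PPM1E and PPM1F, 1 met the rule, Camk2g, at 72.6 ± 7.98 and 64.8 ± 2.40 FPKM (-0.16, unadjusted p = 0.0334, adjusted p = 0.480). Its 2 highest values, 78.6 and 82.01 FPKM, came from Atf6+/+ replicates 3 and 4, and the log2 fold change was -0.056 without them and -0.083 with the bone marrow score. Pak1 stood at 65.1 and 63.2 FPKM. Of 4 genes of ceramide transfer and IRE1, tied to PPM1L, 0 met the rule. Vapa, the ER receptor of CERT, stood at 68.9 FPKM in both genotypes, and Ern1, the gene of IRE1, at 4.31 and 4.60 FPKM.

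The genes whose levels followed Ppm1h most closely were ranked over 13611 genes that averaged 1 FPKM or more. Over the 11 libraries the highest Pearson correlations were those of Tmem181a (r = 0.958), Elk1 (0.954), Tmem254a (0.947), Duxbl1 (0.946) and Cad (0.921), with Spearman's rho of 0.745 to 0.936, and these include the difference between genotypes. After the mean of each genotype was removed they were those of Faxc (0.975), Tanc2 (0.961), Cpsf7 (0.9497), Fam168b (0.945) and Slc35e1 (0.943), with rho of 0.891 to 1. Within genotypes, among the members, Ppm1k (0.802), Ppm1l (0.754) and Ppm1e (0.723) lay closest to Ppm1h, Ppm1b had 0.524, Ppm1j 0.139 and Ppm1a -0.13. These are descriptions over 11 libraries that share a scaling and were picked as the highest of many.

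The genes next to Ppm1h on chromosome 10 were read in the order of the GRCm38 annotation. Of the 3 on each side, Rxylt1 and Usp15 had log2 fold changes of -0.069 and -0.045, BC048403 -0.074 and Srgap1 0.15, and none of these met the unadjusted rule. Mon2, the nearest on the far side, stood at 11.1 and 12.3 FPKM (0.16, unadjusted p = 0.0272, adjusted p = 0.468). Tafa2, a secreted neuronal protein gene, stood at 6.45 ± 1.35 FPKM in the controls, against 4.19 ± 0.838 FPKM in the knockouts (log2 fold change -0.61, unadjusted p = 0.00369, adjusted p = 0.362). Atf6 lies on another chromosome, chromosome 1.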

How the data were processed

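RNA of whole cochleae was measured in 11 libraries, 5 labelled WT (Atf6+/+) and 6 labelled Atf6KO (Atf6-/-). Per the labels and the paper's methods, stranded mRNA libraries were sequenced by BGI and aligned by the authors to GRCm39 with HISAT2 2.0.4. The deposited FPKM values were computed by the authors with RSEM (1.2.12 per the submitters' processing notes; the methods name another version) and carry 2 decimals. RSEM shares reads between similar sequences by estimate. The methods state a nominal number of reads per sample; the actual depth of each library is not known from FPKM, so no counting error is given.

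Values of each gene were taken as log2(FPKM + 0.1), which understates changes of low genes. Genes averaging 0.1 FPKM or more entered a limma model (version 3.58.1 in R 4.3.3) that had genotype as its only term and a trend of variance with level, two-sided, with Benjamini-Hochberg adjustment over all genes tested. The model was tested on simulated data. Differences of single paralogues were also tested by exact permutation; an adjustment over the paralogues alone, planned at first, is not given. The members and gene lists were chosen with earlier results of these data known. Named genes are all members, Atf6, every pathway gene meeting the unadjusted rule, up to 3 further genes of each list with the highest levels and the 5 most like Ppm1h by each measure; Lrrk2, Rab8a, Rab10, Ern1, the neighbours of Ppm1h, Fam19a3, Acta1 and the stria vascularis markers were named outside this rule after their values were seen. Alternatives were pseudocounts of 1 and 0.01, other filters, TPM, median-of-ratios scaling, robust variance, a replicate block, the bone marrow score and leaving out libraries. Leaving out WT replicates 3 and 4 together was chosen after seeing the data. Promoter and coding sequences come from GRCm38 and were read with Python 3.11.15 and Biopython 1.88.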

Additional observations from a re-analysis of the deposited data

Results flagged for a closer look

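In 2 of 20 groups of library values (10 genes, each genotype), a library lay apart from the others of its genotype by a gap that took up more of the group's range than Dixon's critical value allows. Chance gives this in about 1 of 20 such groups. Ppm1d in Atf6+/+ replicate 3 stood at 9.28 FPKM, with the next library at 7.69 FPKM and a gap of 0.729 of the range. Ppm1e in Atf6-/- replicate 2 stood at 16.98 FPKM, with the next at 14.54 FPKM and a gap of 0.737 of the range.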

How the results depend on the processing

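Ppm1h stayed higher in Atf6-/- under all 9 other settings (log2 fold change 0.86 to 1.03), without any single library (0.87 to 0.99) and without WT replicates 3 and 4 (0.98). Ppm1j stayed lower, at -0.34 to -0.12 and, without single libraries, -0.37 to -0.25, and met the unadjusted rule in 8 of the 9 settings, with adjusted p from 0.306 to 0.987. With the bone marrow score as a covariate Ppm1j gave -0.12 and 0 paralogues met the rule; adjusted-p genes went from 11 to 6, genes at the unadjusted rule from 1592 to 813 and pathway genes from 12 to 5. Without WT replicates 3 and 4 these were 0 paralogues, 10, 1010 and 4 genes, and Ppm1j gave -0.17. Leaving out single libraries gave 1 to 2 paralogues (2 without Atf6KO replicate 3, when Ppm1f also met the rule), 8 to 13 adjusted-p genes, and 5 to 13 pathway genes (5 without WT replicate 3 or 4 or Atf6KO replicate 5 or 6, 7 without Atf6KO replicate 4).

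Genes near 0 turned direction. Ppm1a gave 0.027 on TPM. Ppm1e gave 0.054 on TPM, 0.0090 with median-of-ratios scaling, 0.12 with the bone marrow score, 0.070 without WT replicates 3 and 4, and -0.051 to 0.093 without single libraries. Ppm1b gave -0.039 with the bone marrow score and -0.017 to 0.047 without single libraries. TPM put the all-gene median at 0.043 in place of -0.013. The causes were not tested.

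With a replicate block, over replicates 1 to 5 of each genotype, 4 genes passed the adjusted p and 4 pathway genes the unadjusted rule. No pairing by number was seen, as the deviations of same-numbered libraries correlated at -0.21 to 0.12 and 1 of 5 correlated best with its own number. Which libraries shared a litter is not given, so this check cannot exclude a pairing. Without read counts, counting error could not be set against these spreads.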
